A study of Homo sapiens with 14 samples.

Results

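The E2F and DP transcription factors were followed across 2 human multiple myeloma lines, MM1.S and H929, in which ZBP1 had been depleted. The group held 10 genes, E2F1 to E2F8, TFDP1 and TFDP2, chosen by gene symbol among the 58051 genes listed for both lines. All 10 passed the filters on low values in both lines and entered each of the 9 comparisons. ZBP1, a sensor of Z-form nucleic acids, was the target of the hairpins, and poly(A)-selected RNA was sequenced from 14 libraries in 7 groups of 2. The MM1.S groups were cells given a lentiviral scramble control, cells given anti-ZBP1 shRNA1 and cells given anti-ZBP1 shRNA2. The H929 groups were shRNA1, a scramble control labelled for shRNA1, shRNA2 and a second scramble control labelled for shRNA2. Every group, the controls included, was transduced and cultured alike in RPMI with serum (10% FBS). The time after transduction, any selection of transduced cells and the origin of the replicates are not given in the sources used here, so the p-values speak only of the variation among these libraries, which may be technical.

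E2F proteins drive or hold back the genes that a cell needs to copy its DNA and divide. Most of them bind DNA as a pair with a DP protein, and the retinoblastoma family (the pocket proteins) binds these pairs and keeps their targets silent until cyclin-dependent kinases release them in late G1. E2F1, E2F2 and E2F3 are called activators, E2F4, E2F5 and E2F6 repressors, and E2F7 and E2F8 atypical members, which repress E2F targets without a DP partner or a pocket protein. Several E2F genes are E2F targets themselves, and myeloma cells are plasma cells that have kept dividing.

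Values per library are given as normalized CPM, the reads of a gene relative to a library size scaled between the libraries of a line, and levels of different genes are compared only as RPKM, the same value per kilobase of annotated exon. Reads assigned to genes numbered 20461980 to 28419331 in the 6 MM1.S libraries and 15926867 to 22254348 in the 8 libraries of H929, and the lowest member value of any library rested on 49 reads. ZBP1 stood at 138 and 146 normalized CPM in the MM1.S scramble libraries, at 22.2 and 26.2 with shRNA1, and at 14.8 and 18.0 with shRNA2. In H929 it stood at 260 and 274 in the scramble libraries for shRNA1, at 210 and 227 in those for shRNA2, at 101 and 115 with shRNA1 and at 74.7 and 67.4 with shRNA2. Every hairpin library was thus below every scramble library of its line. The plasma cell marker SDC1 was at 525 to 1129 CPM over both lines. The 8 plasma cell markers moved with the hairpins, with 5, 8, 5 and 5 of them lower and 1, 0, 3 and 0 higher with MM1.S shRNA1, MM1.S shRNA2, H929 shRNA1 and H929 shRNA2 (median log2 fold changes -0.73, -0.998, -0.44 and -0.59). Of all tested genes, 19.7%, 21.7%, 27.7% and 25.0% were lower and 17.8%, 14.9%, 25.7% and 18.0% higher in that order. CD38 differed most between the hairpins in MM1.S, at 66.8 and 93.8 CPM in the controls, at 263 to 325 CPM with shRNA1 and at 35.2 to 36.5 CPM with shRNA2. Of the line markers, MAF was at 1533 to 2559 CPM in MM1.S against 143 to 272 CPM in H929, and FGFR3 was at 299 to 1183 CPM in H929 against at most 0.769 CPM in MM1.S. The lambda light-chain genes listed for MM1.S were nearly absent there, with IGLC2 at 3.11 to 9.96 CPM and IGLC3 at 0.505 to 1.76 CPM. Markers of T cells, monocytes and stromal cells were at or below 6.38 CPM in every library, except CD3E and COL1A1 in H929. COL1A1 was at 26.2 to 32.1 CPM with shRNA1 and at most at 1.07 CPM in the other H929 libraries. CD3E was at 23.4 to 31.0 CPM with shRNA2 and at 7.63 to 14.3 CPM in the others, while CD3D and COL1A2 did not exceed 0.101 CPM anywhere. The mitochondrial share of reads was 9.87% and 10.2% in the MM1.S scramble libraries and 11.6% to 12.1% with the hairpins. In H929 it was 6.63% to 7.22% in the controls, against 5.98% and 6.34% with shRNA1 and 8.72% and 8.80% with shRNA2. The part of these markers and shares in the members' changes was not tested.

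The H929 control groups stood apart from each other in these genes. Of the 10 members, 8 were higher and 0 lower in the scramble libraries for shRNA2 than in those for shRNA1 (limma, adjusted p under 0.05), where 16.8% of all tested genes were higher and 13.1% lower. The 0 lower members remained 0 at an unadjusted p under 0.05 and with edgeR on reads recovered from the deposited values. E2F8 differed most, with a log2 difference of 1.40 ± 0.19 (SE, adjusted p = 5.5e-05). E2F1 followed with 1.16 ± 0.13 (adjusted p = 8e-06) and E2F2 with 1.16 ± 0.17 (adjusted p = 1.1e-04), then E2F7 with 0.88 ± 0.22 (adjusted p = 0.00608) and TFDP1 with 0.77 ± 0.09 (adjusted p = 1.4e-05). E2F3, E2F4 and E2F6 were 0.49, 0.32 and 0.37 higher on the log2 scale. E2F5 (-0.12) and TFDP2 (-0.21) did not pass. The call of E2F6 (adjusted p = 0.0314) was lost when any 1 of 6 of the 8 libraries was left out (adjusted p from 0.0545 to 0.154) and that of E2F4 without replicate 2 of the scramble for shRNA1 (0.0638) or for shRNA2 (0.141). That of E2F7 was lost without replicate 2 of the scramble for shRNA2 (adjusted p = 0.0529), which left 5 higher members in all. The 8 markers of cycling cells moved the same way, with a summed level of 470 and 525 CPM in the libraries for shRNA1 and 1293 and 1296 CPM in those for shRNA2. The H929 results of the members and the counts of the gene lists are therefore also given against the other scramble group where they change, an alternative chosen after seeing the data.

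**Figure D1:**
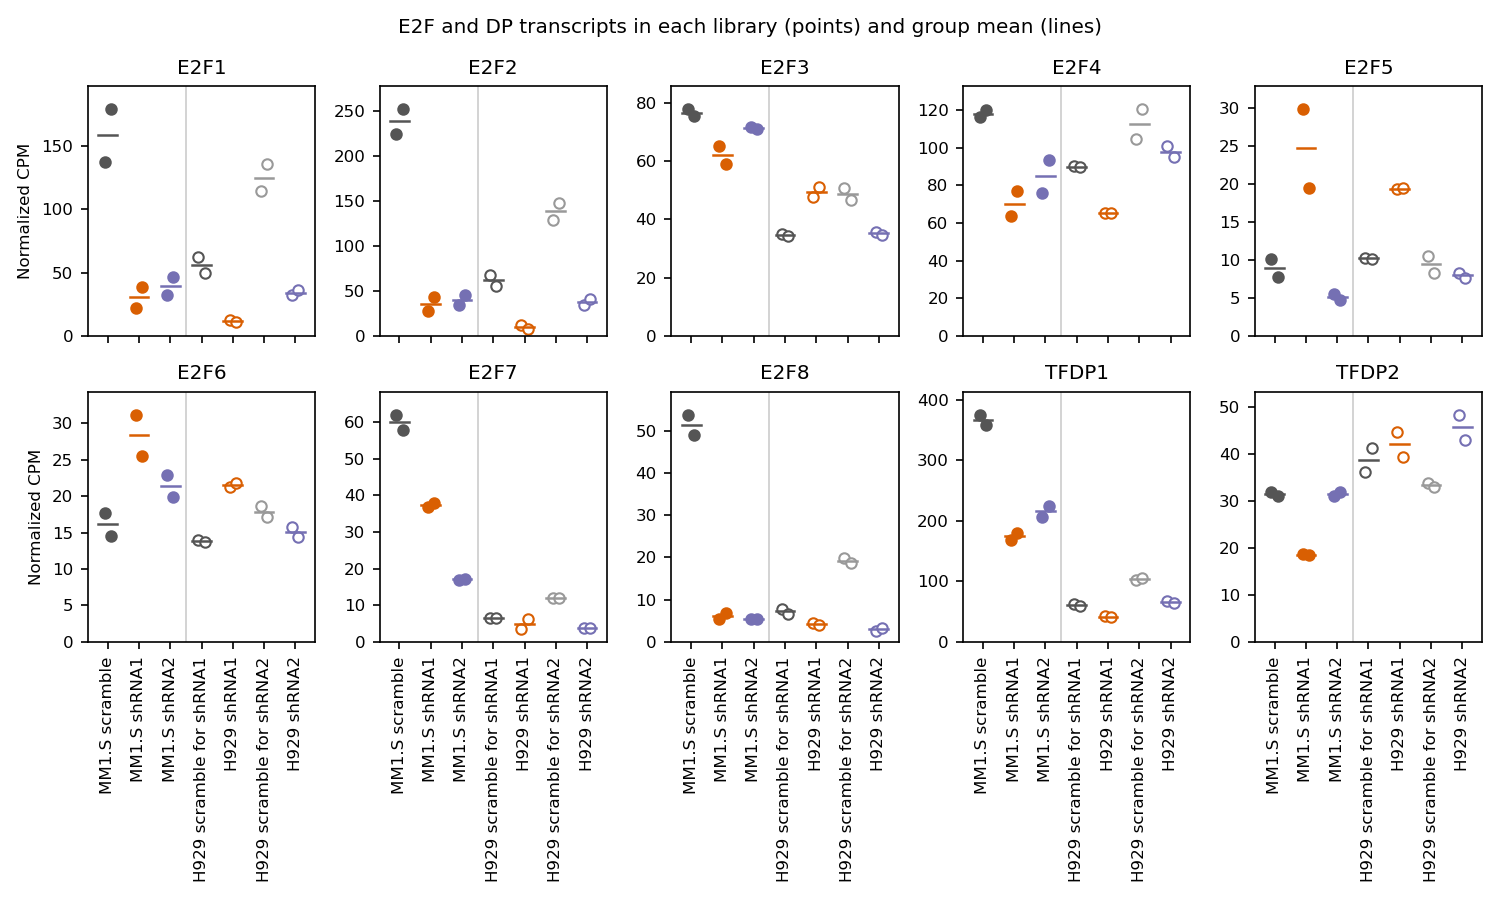
Normalized CPM (vertical axes, from 0) of the 10 E2F and DP genes in each library (points, filled for MM1.S and open for H929), with the mean of each group as a line. E2F1 and E2F2 were lower in all hairpin libraries than in all scramble libraries of the same line, and the H929 scramble libraries for shRNA2 lay above those for shRNA1 for 8 genes.

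In the scramble libraries of MM1.S, TFDP1 had the highest level per length (98.18 ± 3.10 RPKM, SD, n = 2), followed by E2F1 (63.34 ± 11.89), E2F2 (43.83 ± 3.57) and E2F4 (32.93 ± 0.76). E2F3 (14.83 ± 0.36), E2F8 (12.42 ± 0.81) and E2F7 (9.50 ± 0.48) came next. E2F6 (3.96 ± 0.56), TFDP2 (2.64 ± 0.05) and E2F5 (1.52 ± 0.29) were lowest. At this exon length, no neighbours in this order had overlapping libraries.
Over the 4 H929 scramble libraries, E2F1 had the highest mean level per length (36.19 ± 16.45 RPKM, SD, n = 4), ahead of E2F4 (28.27 ± 4.10), TFDP1 (21.99 ± 6.67) and E2F2 (18.39 ± 8.30). The ranges of these 4 genes overlapped across libraries. At this exon length, however, E2F1 and E2F4 were above TFDP1 within each library, and TFDP1 was above E2F2. E2F1 lay below E2F4 in the scramble libraries for shRNA1 and above it in those for shRNA2, so the order of E2F1 and E2F4 was not resolved. The remaining order was E2F3 (8.06 ± 1.61), E2F6 (3.89 ± 0.60), E2F8 (3.20 ± 1.68), TFDP2 (3.03 ± 0.31), E2F5 (1.66 ± 0.17) and E2F7 (1.47 ± 0.50), in which the range of E2F8 (1.62 to 4.78 RPKM) overlapped each of the other 4 genes after E2F3, so the order below E2F3 was resolved only in part. Within each library E2F8 was above E2F7, at 1.59 to 2.52 times its RPKM. The tables of the lines were scaled separately, so levels are set side by side with no test. E2F7 was 6.47 times, TFDP1 4.47 times, E2F8 3.88 times and E2F2 2.38 times as high in MM1.S as in H929, with every MM1.S scramble library above every H929 one. The libraries of E2F4, E2F5 and E2F6 overlapped between the lines, and TFDP2 alone was higher in all H929 scramble libraries.

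E2F1 and E2F2 were lower with both hairpins in both lines, each to between 14.9% and 27.3% of its scramble level, and E2F3 was not. E2F1 (ENSG00000101412, chr20:33675683-33686404, minus strand, GRCh38), the founding member, also known for pushing damaged cells towards apoptosis, stood at 138 and 179.6 CPM in the MM1.S scramble libraries. It stood at 22.0 and 39.1 CPM with shRNA1 and at 31.97 and 46.8 CPM with shRNA2. All 4 hairpin libraries were far below both scramble libraries. The ranges of the hairpin groups overlapped, but shRNA2 was above shRNA1 between libraries of the same number. The log2 fold change was -2.38 ± 0.30 with shRNA1 (SE, edgeR, adjusted p = 7.4e-04) and -2.01 ± 0.29 with shRNA2 (adjusted p = 0.00158). In H929, E2F1 stood at 62.3 and 49.7 CPM in the scramble libraries for shRNA1 and at 12.9 and 11.1 CPM with shRNA1. It stood at 115 and 136 CPM in the scramble libraries for shRNA2 and at 32.3 and 36.0 CPM with shRNA2. The shRNA1 libraries were the lowest of the series and the shRNA2 libraries also lay below all 4 scramble libraries. The log2 fold changes were -2.21 ± 0.13 (limma, adjusted p = 8.3e-10) and -1.87 ± 0.13 (adjusted p = 1.7e-08). Against the scramble group of the other hairpin they were -3.38 for shRNA1 and -0.70 for shRNA2 (adjusted p = 2.4e-12 and 3.9e-04).

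E2F2 (ENSG00000007968, chr1:23506430-23531220, minus strand), an activator prominent in blood-forming cells, followed E2F1 closely. In MM1.S it stood at 225 and 253 CPM in the scramble libraries, at 27.7 and 43.3 CPM with shRNA1 and at 34.0 and 45.4 CPM with shRNA2. The log2 fold changes were -2.75 ± 0.24 (adjusted p = 1.4e-04) and -2.59 ± 0.23 (adjusted p = 1.8e-04). The ranges of the hairpin groups overlapped, with shRNA2 above shRNA1 between libraries of the same number. In H929 it stood at 68.2 and 55.8 CPM in the scramble libraries for shRNA1 and at 12.5 and 7.83 CPM with shRNA1, a log2 fold change of -2.63 ± 0.17 (adjusted p = 3e-09). It stood at 129 and 149 CPM in the scramble libraries for shRNA2 and at 34.3 and 41.0 CPM with shRNA2, a log2 fold change of -1.88 ± 0.17 (adjusted p = 3.3e-07). No hairpin library reached a scramble library of the same line. Against the other scramble group the log2 fold change was -3.80 for shRNA1 and -0.72 for shRNA2 (adjusted p = 1.7e-11 and 0.00318).

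E2F3 (ENSG00000112242, chr6:20401906-20493715, plus strand), the third activator, showed no common direction. In MM1.S it stood at 77.9 and 75.3 CPM in the scramble libraries, at 65.2 and 59.1 CPM with shRNA1 and at 71.7 and 70.9 CPM with shRNA2. These groups lay close together without overlapping, and neither hairpin passed the test, with log2 fold changes of -0.30 ± 0.12 (adjusted p = 0.0740) and -0.10 ± 0.11 (adjusted p = 0.514). The shRNA1 value of -0.30 passed in the fit with a replicate block (adjusted p = 8.2e-04). In the authors' deposited table it was also -0.30 and passed (adjusted p = 0.00255). In H929, E2F3 was at 35.0 and 34.2 CPM in the scramble libraries for shRNA1 and rose to 47.8 and 51.2 CPM with shRNA1 (log2 fold change 0.52 ± 0.10, adjusted p = 3e-04). It was at 50.7 and 46.7 CPM in the scramble libraries for shRNA2 and fell to 35.7 and 34.6 CPM with shRNA2 (log2 fold change -0.47 ± 0.10, adjusted p = 0.00107). The shRNA1 libraries lay at the level of one control group and the shRNA2 libraries at that of the other. Accordingly, neither call held against the other scramble group, where the log2 differences were 0.02 and 0.02 (adjusted p = 0.842 and 0.866), the second one reversed in sign.

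Promoters are shown for the members with an E2F-type motif near their start, because these include E2F1, E2F2 and TFDP1, lower in all 4 hairpin comparisons, as was E2F8, for which no window is shown. RefSeq promoter windows (GRCh38.p14, 250 bases before to 50 after the start) matched 8 of the 10 members, all but E2F5 and E2F8, with 11 windows in all. The windows were searched on both strands for the E2F-type octamers TTTGGCGC, TTTCGCGC, TTTCCCGC and TTTGCCGC. At least 1 of them lay in 4 of the 11 windows (36.4%), 1 each of E2F1, E2F2, E2F3 and TFDP1, and in 3.31% of all 35116 windows. In the stretches below, which run from 150 bases before to 30 after the start on the gene's own strand, the capitals mark these octamers, read on either strand.
E2F1 promoter, chr20:33686356-33686535, minus strand: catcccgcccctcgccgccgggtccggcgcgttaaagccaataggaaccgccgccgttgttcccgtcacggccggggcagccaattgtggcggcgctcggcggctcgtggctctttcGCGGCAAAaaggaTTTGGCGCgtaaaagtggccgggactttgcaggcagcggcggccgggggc
E2F2 promoter, chr1:23531204-23531383, minus strand: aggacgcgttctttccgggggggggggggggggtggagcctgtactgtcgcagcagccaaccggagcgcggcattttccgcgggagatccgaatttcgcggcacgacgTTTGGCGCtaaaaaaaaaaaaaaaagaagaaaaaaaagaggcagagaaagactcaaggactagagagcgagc
E2F3 promoter, chr6:20401729-20401908, plus strand: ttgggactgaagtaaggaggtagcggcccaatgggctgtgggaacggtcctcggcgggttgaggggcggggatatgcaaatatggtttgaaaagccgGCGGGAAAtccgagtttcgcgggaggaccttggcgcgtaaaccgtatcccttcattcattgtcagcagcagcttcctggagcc
TFDP1 promoter, chr13:113584603-113584782, plus strand: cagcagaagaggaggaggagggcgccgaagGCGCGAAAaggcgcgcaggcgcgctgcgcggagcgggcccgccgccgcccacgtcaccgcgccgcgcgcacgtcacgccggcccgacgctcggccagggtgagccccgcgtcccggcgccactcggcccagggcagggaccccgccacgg
The matches began 20 and 33 bases before the start of E2F1, 42 before that of E2F2, 53 before that of E2F3 and 120 before that of TFDP1. The box CCAAT, read by NF-Y, lay in 4 of the 11 windows (36.4%, 1 each of E2F1, E2F3, E2F7 and TFDP2), near the 34.6% of all windows. A CHR-type motif (TTTGAA or TTCGAA), as found in genes of late cell cycle, lay in 3 (27.3%, 1 of E2F3 and 2 of TFDP2) against 16.4%. E2F4 and E2F6 held none of these letters in their windows. E2F3, the activator without a common direction, held an octamer in its first window and none of these motifs in its second. Reads were counted per gene, so the starts cannot be told apart. The part of the motifs in the members' changes was not tested.

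**Figure D2:**
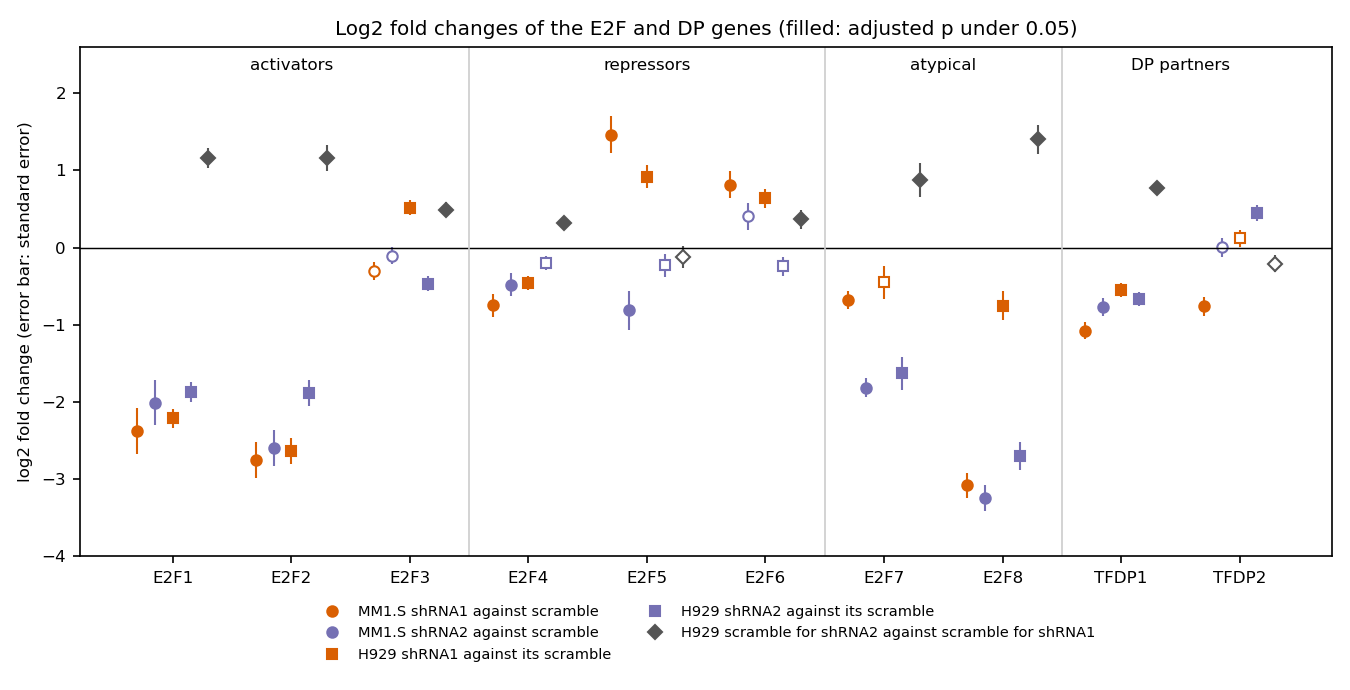
Log2 fold change (vertical axis) with its standard error for each of the 10 genes, ordered by class, for the 4 hairpin comparisons and for the H929 scramble group for shRNA2 against that for shRNA1. E2F1, E2F2, E2F8 and TFDP1 were lower in all 4 hairpin comparisons (filled symbols pass adjusted p under 0.05), and the grey diamonds show the size of the control difference beside them.

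Among the repressors, E2F4 was lower in 3 of the 4 hairpin comparisons, and E2F5 and E2F6 were higher with shRNA1 in both lines. The hairpins differed for E2F5 in both lines. For E2F4 and E2F6 they differed in MM1.S only in the fit with a replicate block. In H929 the E2F6 effects differed (-0.88 ± 0.17, limma, adjusted p = 6.5e-04), but not with the scramble groups exchanged. Those of E2F4 did not pass against their own scramble groups (0.26, adjusted p = 0.116) and did with the other choices of control. E2F4 (ENSG00000205250, chr16:67192169-67198918, plus strand) is the main partner of the pocket proteins in resting cells. In MM1.S it stood at 116 and 119.9 CPM in the scramble libraries, at 63.6 and 76.9 CPM with shRNA1 and at 76.0 and 93.3 CPM with shRNA2. Both hairpin groups were below the control and overlapped each other in range, with shRNA2 above shRNA1 between libraries of the same number. The log2 fold changes were -0.75 ± 0.15 (adjusted p = 0.00603) and -0.48 ± 0.15 (adjusted p = 0.0371). The first was no longer called without replicate 1 of shRNA1 (adjusted p = 0.0517), nor the second without any 1 of the 4 libraries it compared (adjusted p from 0.0529 to 0.248). In H929, E2F4 stood at 90.1 and 89.6 CPM in the scramble libraries for shRNA1 against 65.4 and 65.2 CPM with shRNA1 (log2 fold change -0.46 ± 0.09, adjusted p = 4.6e-04). It stood at 105 and 121 CPM in the scramble libraries for shRNA2 against 101 and 94.9 CPM with shRNA2. That change of -0.20 ± 0.09 did not pass (adjusted p = 0.0870), except without replicate 1 of that scramble group (-0.30, adjusted p = 0.0322). The shRNA2 libraries lay between the control groups, and against the scramble group for shRNA1 the value was 0.12, reversed in sign (adjusted p = 0.310).

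E2F5 (ENSG00000133740), a second partner of the pocket proteins, had the lowest level per length in the MM1.S scramble libraries. It stood at 10.2 and 7.76 CPM in the MM1.S scramble libraries, at 29.9 and 19.5 CPM with shRNA1 and at 5.47 and 4.74 CPM with shRNA2. The shRNA1 libraries were above and the shRNA2 libraries below both controls. The log2 fold change was 1.46 ± 0.24 with shRNA1 (adjusted p = 0.00252) and -0.81 ± 0.25 with shRNA2 (adjusted p = 0.0359). The second call was lost without replicate 1 of the scramble (adjusted p = 0.135) or without either shRNA2 library (0.0968 and 0.169). In H929, E2F5 stood at 10.3 and 10.2 CPM in the scramble libraries for shRNA1 and at 19.3 and 19.5 CPM with shRNA1, a log2 fold change of 0.92 ± 0.15 (adjusted p = 7.2e-05). It stood at 10.6 and 8.34 CPM in the scramble libraries for shRNA2 and at 8.33 and 7.66 CPM with shRNA2, where the change of -0.23 ± 0.15 did not pass (adjusted p = 0.223). The controls of H929 overlapped for this gene, and the shRNA1 call kept its size against the other scramble group (log2 fold change 1.04, adjusted p = 1.3e-05). E2F5 shares 969 exon bases, 16.4% of its exon length, with C8orf59 on the opposite strand. Strand use is not given in the sources used here, so reads of the pair cannot be told apart over that stretch. C8orf59 was not called in the 4 hairpin comparisons and stood below its MM1.S scramble level with shRNA1 (9.42 and 7.94 CPM against 12.8 and 10.8 CPM), where E2F5 rose.

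E2F6 (ENSG00000169016, chr2:11444375-11466177, minus strand) represses without a pocket protein, as part of the Polycomb complex PRC1.6. In MM1.S it stood at 17.7 and 14.5 CPM in the scramble libraries, at 31.2 and 25.5 CPM with shRNA1 and at 22.8 and 19.9 CPM with shRNA2. Both hairpin groups were above both controls. The log2 fold change was 0.81 ± 0.17 with shRNA1 (adjusted p = 0.00795) and 0.41 ± 0.17 with shRNA2, which did not pass (adjusted p = 0.101) but did in the fit with a replicate block (0.41, adjusted p = 0.00189). In the authors' deposited table the shRNA2 change was 0.42 (adjusted p = 0.00838). In H929, E2F6 stood at 13.96 and 13.7 CPM in the scramble libraries for shRNA1 and at 21.3 and 21.8 CPM with shRNA1 (log2 fold change 0.64 ± 0.12, adjusted p = 3.3e-04). It stood at 18.7 and 17.1 CPM in the scramble libraries for shRNA2 and at 15.8 and 14.4 CPM with shRNA2 (log2 fold change -0.24 ± 0.12, adjusted p = 0.121). The shRNA1 libraries were the highest of H929, above both control groups. Against the scramble group for shRNA2 their log2 difference was 0.27 and did not pass (adjusted p = 0.0619), and that of shRNA2 against the scramble group for shRNA1 was 0.13, reversed in sign (adjusted p = 0.442).

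Of the atypical members, E2F8 was lower in all 4 hairpin comparisons, by the largest factor of any member in MM1.S, and E2F7 in 3 of them. E2F7 (ENSG00000165891, chr12:77021247-77065580, minus strand), which represses E2F targets late in S phase, stood at 62.0 and 57.7 CPM in the MM1.S scramble libraries. It stood at 36.8 and 37.9 CPM with shRNA1 and at 16.9 and 17.2 CPM with shRNA2. The 3 groups were well separated, with shRNA2 lowest. The log2 fold changes were -0.68 ± 0.12 (adjusted p = 0.0033) and -1.81 ± 0.12 (adjusted p = 5.5e-05). In H929, E2F7 stood at 6.62 and 6.398 CPM in the scramble libraries for shRNA1 and at 3.62 and 6.21 CPM with shRNA1. The second shRNA1 library was close to its controls, and the change of -0.45 ± 0.22 did not pass (adjusted p = 0.0887). Without that library the change was -0.84 (adjusted p = 0.00223) and without the first it was -0.07 (adjusted p = 0.805). Against the other scramble group, with both libraries, it was -1.33 (adjusted p = 5.1e-05). It stood at 11.96 and 12.02 CPM in the scramble libraries for shRNA2 and at 3.78 and 3.898 CPM with shRNA2, a log2 fold change of -1.63 ± 0.22 (adjusted p = 1.8e-05) that was -0.75 against the other scramble group (adjusted p = 0.0111).

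E2F8 (ENSG00000129173, chr11:19224063-19241620, minus strand), the closest relative of E2F7, stood at 53.8 and 49.1 CPM in the MM1.S scramble libraries. It stood at 5.44 and 6.75 CPM with shRNA1 and at 5.39 and 5.46 CPM with shRNA2. The hairpin groups overlapped each other near 11.9% and 10.5% of the control mean. The log2 fold changes were -3.08 ± 0.16 (adjusted p = 3.5e-05) and -3.24 ± 0.17 (adjusted p = 2.4e-05). In H929, E2F8 stood at 7.81 and 6.69 CPM in the scramble libraries for shRNA1 and at 4.57 and 3.97 CPM with shRNA1, a log2 fold change of -0.75 ± 0.19 (adjusted p = 0.00294). It stood at 19.8 and 18.7 CPM in the scramble libraries for shRNA2 and at 2.51 and 3.37 CPM with shRNA2, a log2 fold change of -2.70 ± 0.19 (adjusted p = 2.2e-08). All hairpin libraries lay below all scramble libraries of H929, so the control group set the size: against the other scramble group the values were -2.16 for shRNA1 and -1.30 for shRNA2 (adjusted p = 4.5e-08 and 5.8e-05). In MM1.S the RPKM of E2F8 was 1.32 and 1.29 times that of E2F7 in the scramble libraries, but 0.225 and 0.271 times with shRNA1 and 0.486 and 0.484 times with shRNA2, so the more abundant atypical member changed.

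Of the DP partners, TFDP1 was lower in all 4 hairpin comparisons and TFDP2 had no common direction. TFDP1 (ENSG00000198176, chr13:113584721-113641470, plus strand), the main dimer partner of E2F1 to E2F6, stood at 376 and 359 CPM in the MM1.S scramble libraries. It stood at 169 and 179.9 CPM with shRNA1 and at 206 and 225 CPM with shRNA2. Both hairpin groups were below the controls, shRNA1 furthest. The log2 fold changes were -1.07 ± 0.12 (adjusted p = 3.8e-04) and -0.77 ± 0.12 (adjusted p = 0.00174). In H929 it stood at 62.8 and 58.8 CPM in the scramble libraries for shRNA1 and at 42.1 and 41.0 CPM with shRNA1 (log2 fold change -0.55 ± 0.09, adjusted p = 7.2e-05). It stood at 102 and 106 CPM in the scramble libraries for shRNA2 and at 67.0 and 64.2 CPM with shRNA2 (log2 fold change -0.66 ± 0.09, adjusted p = 2e-05). The shRNA2 libraries were slightly above the scramble libraries for shRNA1. Against that group the value was 0.11, reversed in sign and not called (adjusted p = 0.351), whereas shRNA1 was at -1.32 against the scramble group for shRNA2 (adjusted p = 2.1e-09).

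TFDP2 (ENSG00000114126, chr3:141944428-142149544, minus strand), the second DP partner, stood at 31.8 and 31.1 CPM in the MM1.S scramble libraries, at 18.7 and 18.4 CPM with shRNA1 and at 31.1 and 31.95 CPM with shRNA2. It was lower with shRNA1 (log2 fold change -0.76 ± 0.12, adjusted p = 0.00247), and with shRNA2 it lay at the control level (0.00 ± 0.12, adjusted p = 0.984). In H929 it stood at 36.1 and 41.2 CPM in the scramble libraries for shRNA1 and at 44.7 and 39.3 CPM with shRNA1, with overlapping libraries (log2 fold change 0.12 ± 0.11, adjusted p = 0.372). It stood at 33.7 and 32.97 CPM in the scramble libraries for shRNA2 and at 48.4 and 42.9 CPM with shRNA2, and rose by a log2 fold change of 0.45 ± 0.11 (adjusted p = 0.00347). That call was lost without replicate 1 of shRNA2 (adjusted p = 0.0717) and against the other scramble group (0.24, adjusted p = 0.0924). For shRNA1 the value against the other scramble group was 0.33 and passed (adjusted p = 0.0147).

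Counted over all members, 7 of 10 were lower and 2 higher with shRNA1 in MM1.S, where 19.7% of tested genes were lower and 17.8% higher. With shRNA2 in MM1.S, 7 were lower and 0 higher, against 21.7% and 14.9% of tested genes. Before adjustment E2F6 alone was higher there at the same threshold with edgeR, and it passed with the replicate block, under which 26.8% of all tested genes were higher and 32.0% lower. These counts share the scramble libraries. In H929, 5 were lower and 3 higher with shRNA1, against 27.7% and 25.7% of tested genes, and 6 were lower and 1 higher with shRNA2, against 25.0% and 18.0%. Against the other scramble group these became 6 lower and 2 higher for shRNA1, against 32.4% and 31.3% of tested genes, and 4 lower and 0 higher for shRNA2, against 21.9% and 17.6%. E2F1, E2F2, E2F7 and E2F8 were the 4 lower members that held in that last comparison. The activators had a median log2 fold change of -2.38, -2.01, -2.21 and -1.87 in the order MM1.S shRNA1, MM1.S shRNA2, H929 shRNA1 and H929 shRNA2. The repressors had 0.81, -0.48, 0.64 and -0.23, and the atypical members -1.88, -2.53, -0.60 and -2.16, where the median of all tested genes lay between -0.03 and 0.00. Against the other scramble group in H929, the medians for shRNA1 and shRNA2 were -3.38 and -0.70 for the activators. They were 0.27 and 0.12 for the repressors, the second reversed in sign, and -1.74 and -1.02 for the atypical members.

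**Figure D3:**
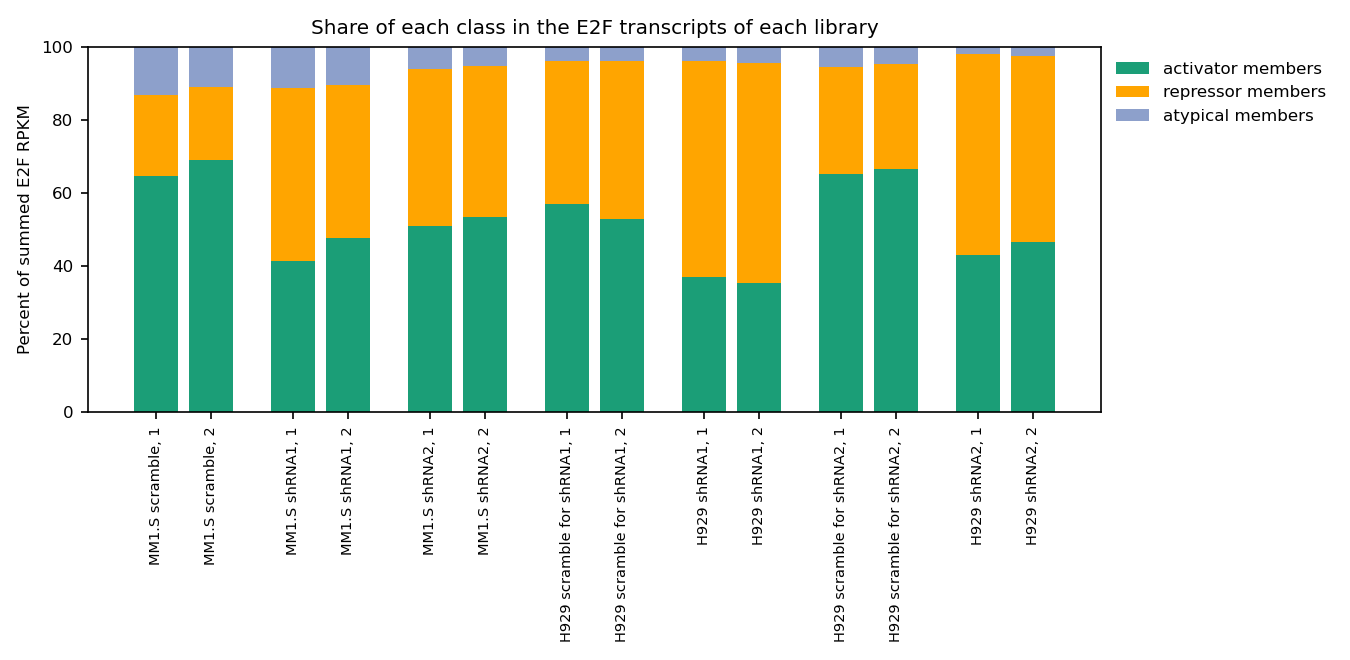
Percent of the summed E2F RPKM (vertical axis) contributed by activator, repressor and atypical members in each library, named by group and replicate number. The activator share lay between 35.4% and 53.3% in the hairpin libraries, below both scramble libraries of MM1.S, and in H929 below 52.9%, the lowest scramble library.

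The make-up of the E2F transcripts differed accordingly. In MM1.S the activators made up 64.5% and 69.1% of the summed E2F RPKM in the controls, against 41.3% and 47.5% with shRNA1 and 50.9% and 53.3% with shRNA2. In H929 they made up 57.0% and 52.9% in the scramble libraries for shRNA1 against 37.0% and 35.4% with shRNA1, and 65.2% and 66.4% in those for shRNA2 against 43.0% and 46.6% with shRNA2. Within each line, the hairpin libraries did not overlap the scramble libraries. The summed E2F RPKM itself was 173 and 192 in the MM1.S scramble libraries and 64.1 to 76.5 with the hairpins. A share can grow while the level falls, as for E2F4, which made up 18.8% and 17.4% in the MM1.S scramble libraries and 27.7% to 34.0% with the hairpins. The RPKM of E2F1 was 1.70 and 2.14 times that of E2F4 in the MM1.S scramble libraries and 0.494 to 0.727 times with the hairpins. In H929 this ratio was 0.793 to 1.61 in the scramble libraries and 0.243 to 0.544 with the hairpins. Atypical members made up 13.2% and 10.9% in the MM1.S scramble libraries, 11.2% and 10.4% with shRNA1, which overlaps, and 6.15% and 5.28% with shRNA2. In bulk RNA, fewer cells with a transcript and less of it per cell cannot be told apart.

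The hairpins differed from each other for some members. In MM1.S, shRNA2 was set directly against shRNA1, a contrast without the scramble group. The scramble libraries still entered the filter, the scaling and the estimate of the spread. There 2 members were lower and 1 higher, near the 20.4% and 16.4% of all tested genes, so these counts do not set the members apart. E2F5 was lower by a log2 difference of -2.28 ± 0.25 (adjusted p = 5.2e-04), E2F7 by -1.13 ± 0.12 (adjusted p = 4.8e-04), and TFDP2 was higher by 0.76 ± 0.12 (adjusted p = 0.00268). The other 7 did not pass. E2F8 differed by -0.16 ± 0.17 and E2F2 by 0.16 ± 0.23. In the fit with a replicate block, E2F1 (0.39, adjusted p = 0.00425), E2F3 (0.20, 0.0114), E2F4 (0.27, 0.00573) and TFDP1 (0.31, 0.00159) were also higher and E2F6 (-0.40, 0.00171) also lower. Under the block 28.7% of all tested genes were higher and 29.6% lower. E2F1 passed as well without replicate 2 of shRNA1 (0.83, adjusted p = 0.0435).

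In H929 the effects of shRNA2 and shRNA1, each against its own scramble group, differed for 6 members, 5 lower and 1 higher, against 21.9% and 20.0% of tested genes. E2F8 (-1.95 ± 0.26, adjusted p = 2.5e-05), E2F7 (-1.18 ± 0.30, 0.00544), E2F5 (-1.15 ± 0.21, 3.7e-04), E2F3 (-0.98 ± 0.14, 3.1e-05) and E2F6 (-0.88 ± 0.17, 6.5e-04) were lower with shRNA2, and E2F2 (0.75 ± 0.24, 0.0185) was higher. The E2F2 call was lost without any 1 of 4 libraries, both groups' first scramble libraries and the second library of each hairpin group (adjusted p from 0.0691 to 0.105), with a value of 0.42 without replicate 2 of shRNA1. E2F5 was lower with shRNA2 under each choice of control group. With both scramble groups as the control, which sets shRNA2 directly against shRNA1, its difference was -1.27 (adjusted p = 1.6e-06), and E2F6 (-0.51, adjusted p = 0.00169), E2F3 (-0.49, adjusted p = 3.6e-04) and E2F8 (-0.54, adjusted p = 0.0198) also remained lower. E2F7 did not pass there (-0.30, adjusted p = 0.242), while E2F1 (1.51), E2F2 (1.92), E2F4 (0.58) and TFDP1 (0.66) were higher with shRNA2, against 29.7% of tested genes lower and 30.2% higher. With the scramble groups exchanged, E2F8 was higher by 0.86 (adjusted p = 0.0109), so its sign followed the controls. E2F6 (-0.14, adjusted p = 0.491) and E2F3 (0.00, adjusted p = 0.998) then did not pass. E2F1 (2.67), E2F2 (3.08), E2F4 (0.91) and TFDP1 (1.43) were higher there, with 29.3% of all tested genes higher and 28.8% lower.

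Between the lines, the effect of shRNA1 was lower in MM1.S than in H929 for 4 members and higher for 0, against 11.0% and 10.4% of tested genes (limma over all 14 libraries). The 0 higher members remained 0 at an unadjusted p under 0.05. The difference was -2.32 ± 0.25 for E2F8 (adjusted p = 6.1e-05), -0.88 ± 0.15 for TFDP2 (0.00154), -0.82 ± 0.13 for E2F3 (9e-04) and -0.53 ± 0.12 for TFDP1 (0.00785). With both H929 scramble groups as the control, the E2F8 value was -1.62 (adjusted p = 3.8e-04), TFDP2 -0.99 (3.9e-04) and E2F3 -0.57 (0.00499), and TFDP1 did not pass (-0.14, 0.402), where 11.6% of tested genes were lower and 11.6% higher. With the other scramble group, E2F8 (-0.92, adjusted p = 0.0185) and TFDP2 (-1.09, 3.1e-04) remained and E2F3 did not (-0.33, 0.0896), while E2F2 was higher (1.01, 0.0401), against 11.7% of tested genes lower and 12.4% higher. ZBP1 itself fell further in MM1.S with both hairpins, by a log2 difference of -1.25 ± 0.17 with shRNA1 and of -1.48 ± 0.17 with shRNA2. The part of ZBP1 in the members' differences was not tested.
For shRNA2, 0 members were lower and 0 higher, against 5.41% and 4.34% of tested genes. Before adjustment E2F3 (0.38) and E2F6 (0.67) lay on the higher side of the 0.05 threshold and TFDP2 (-0.43) on the lower side in the limma fit. E2F6 had an adjusted p of 0.0531, and passed with TMM scaling (0.0482), with a pseudocount of 5 (0.0469) and with the replicate block (0.00497). E2F3 (0.0276) and TFDP2 (0.0482) also passed with the block, under which 9.46% of tested genes were higher and 9.44% lower. With both scramble groups as the control, E2F2 (-1.28, adjusted p = 0.0139), E2F8 (-1.22, 0.00439) and TFDP1 (-0.47, 0.0137) were lower in MM1.S and none was higher, against 8.36% and 6.87% of tested genes. With the other scramble group 6 members were lower and 0 higher, against 11.3% and 9.02%. They were E2F8 (-1.92, adjusted p = 2.5e-04), E2F2 (-1.87, 0.00164), E2F1 (-1.30, 0.0175), E2F7 (-1.04, 0.0160), TFDP1 (-0.86, 4e-04) and E2F4 (-0.59, 0.0241).

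The wider pathway was read from lists of genes that act on, with or below the E2F proteins. Of all tested genes, 19.7%, 21.7%, 27.7% and 25.0% were lower and 17.8%, 14.9%, 25.7% and 18.0% higher with MM1.S shRNA1, MM1.S shRNA2, H929 shRNA1 and H929 shRNA2. With the H929 control groups exchanged, 32.4% and 21.9% were lower and 31.3% and 17.6% higher with shRNA1 and shRNA2. The 32 classic E2F targets, such as those for replication and nucleotide supply, were all lower with each hairpin in MM1.S (medians of the log2 fold change -2.43 and -1.95) and with shRNA2 in H929 (-1.68). With shRNA1 in H929, 29 were lower (-2.28). The 3 others, chosen after their values were seen, were RBL1, CCNE1 and CCNE2. With the control groups exchanged, all 32 were lower with shRNA1 in H929 (median -3.54), but 16 were lower with shRNA2 (median -0.37) and 1 higher, PCNA (0.32). RRM2, a subunit of ribonucleotide reductase, had log2 fold changes of -3.44 ± 0.17 and -2.81 ± 0.17 in MM1.S and of -5.00 ± 0.16 and -2.63 ± 0.16 in H929 for shRNA1 and shRNA2. UHRF1, which maintains DNA methylation, had -3.14, -2.69, -4.29 and -2.79 in the same order (the last -0.56 and not called against the other scramble group), CDK1, the kinase of mitotic entry, -2.90, -3.56, -3.48 and -2.70, and MYBL2, a transcription factor of late cell cycle, -2.65, -3.32, -2.66 and -2.90. All 32 targets were also higher in the H929 scramble libraries for shRNA2 than in those for shRNA1 (median 1.37), against 16.8% of all tested genes. The list's mean level was 7.18 and 7.12 log2 CPM in the MM1.S scramble libraries, 4.73 to 5.22 with the hairpins, 5.18 and 5.02 in the H929 scramble libraries for shRNA1, 6.38 and 6.45 in those for shRNA2, 3.08 and 3.28 with shRNA1 and 4.66 and 4.79 with shRNA2. The 8 markers of cycling cells were lower in all 4 hairpin comparisons (medians -2.73, -3.12, -2.89 and -1.93), with summed levels of 2492 and 3008 CPM in the MM1.S scramble libraries and 335 to 430 CPM with the hairpins. In H929 they summed to 86.2 and 107 CPM with shRNA1 and to 305 and 331 CPM with shRNA2. With the controls exchanged, 8 were lower with shRNA1 and 5 with shRNA2 (medians -4.38 and -0.56). The part of the share of cycling cells in the members' changes was not tested.

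**Figure D4:**
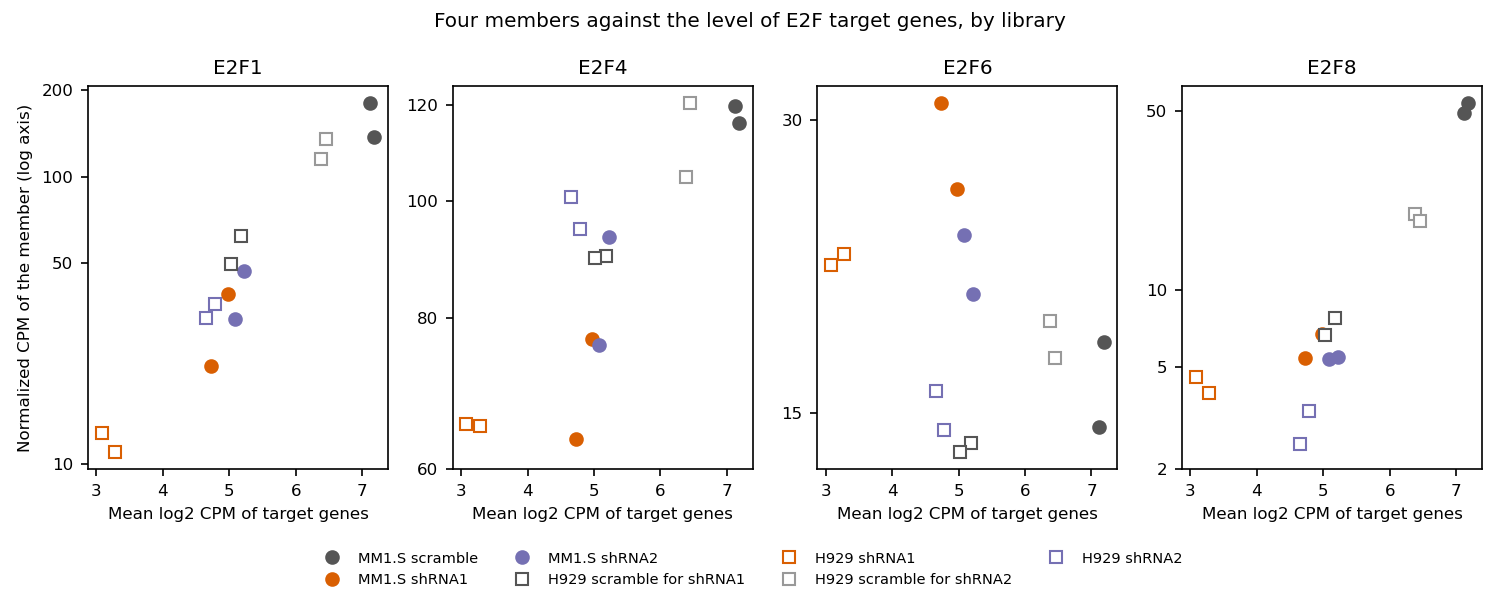
Normalized CPM of E2F1, E2F4, E2F6 and E2F8 (vertical log axes) against the mean log2 CPM of the 32 classic E2F targets (horizontal axis) in each library, by group. E2F1 was lowest in the H929 shRNA1 libraries, where the targets were lowest (3.08 and 3.28), and highest in the MM1.S scramble libraries, where they were highest (7.18 and 7.12), whereas E2F6 was highest with shRNA1 in both lines.

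The pocket proteins divided. RBL1 (p107), itself an E2F target, had log2 fold changes of -1.49 ± 0.14 and -1.50 ± 0.13 in MM1.S and of -1.20 ± 0.13 with shRNA2 in H929, all called, and of -0.05 ± 0.13 with shRNA1 in H929, which was not. RB1, the retinoblastoma gene, was called in none of the 4 comparisons (-0.12, 0.02, 0.06 and -0.12). RBL2 (p130), the pocket protein of resting cells, was higher with shRNA2 in both lines (0.56 ± 0.14 in MM1.S and 0.38 ± 0.09 in H929) and was not called with shRNA1 (0.19 and -0.11). Against the other H929 scramble group RBL1 was instead lower with shRNA1 (-1.15) and not called with shRNA2 (-0.10), and RBL2 was not called with shRNA2 (0.23). Of the 16 listed cyclins, kinases and inhibitors of G1, 15 were tested in MM1.S and 16 in H929. In the order given above, 7, 7, 8 and 8 were lower and 3, 2, 4 and 3 higher, and in H929 9 and 7 were lower and 4 and 1 higher against the other scramble group. Of all tested genes, 19.7%, 21.7%, 27.7% and 25.0% were lower and 17.8%, 14.9%, 25.7% and 18.0% higher in that order. Against the other scramble group 32.4% and 21.9% of them were lower and 31.3% and 17.6% higher. CDC25A, the phosphatase that activates CDK2, had -2.78, -2.31, -3.47 and -2.32, and CDK2 -1.92, -2.07, -0.53 and -1.94, all called. CCNE1, the cyclin of CDK2, had -1.93, -2.51 and -1.34 in the called comparisons and 0.00 with shRNA1 in H929, which was -0.60 and called against the other scramble group. CDKN1C, which inhibits these kinases, was higher with shRNA1 in both lines (2.12 ± 0.31 and 2.94 ± 0.25) and with shRNA2 in H929 (0.68 ± 0.25), and was not called with shRNA2 in MM1.S (0.39 ± 0.32). Its H929 value with shRNA2 was reversed against the other scramble group, at -1.20 and called.

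Of the 5 MuvB core genes, which join E2F4 and the pocket proteins in the DREAM complex, 4, 3, 3 and 3 were lower in the order given above, and 4 and 2 in H929 against the other scramble group. Of all tested genes, 19.7%, 21.7%, 27.7% and 25.0% were lower in that order, and 32.4% and 21.9% against the other scramble group. LIN9 had log2 fold changes of -1.75, -2.62, -0.74 and -1.63 and RBBP4, a histone-binding subunit, -0.99, -1.46, -0.55 and -1.22, all called. LIN54, the DNA-binding subunit, was called with both hairpins in MM1.S (-1.04 and -0.78) and with shRNA2 in H929 (-0.53), where it was 0.18 and not called against the other scramble group. Of the 10 PRC1.6 partners of E2F6, 3, 3, 2 and 3 were lower and 1, 1, 4 and 1 higher, where 19.7%, 21.7%, 27.7% and 25.0% of all tested genes were lower and 17.8%, 14.9%, 25.7% and 18.0% higher. In H929 the exchanged controls gave 4 and 2 lower and 2 and 1 higher, against 32.4% and 21.9% of tested genes lower and 31.3% and 17.6% higher. WDR5 (-0.76, -1.04, -0.34 and -1.36) was lower in every comparison, and CBX3 (-0.58, -0.70, -0.17 and -0.78) in all but shRNA1 in H929. CBX3 against the other scramble group was instead lower with shRNA1 (-0.89) and not with shRNA2 (-0.06). RING1, a ubiquitin ligase of the complex, was higher in all but shRNA1 in MM1.S (0.00, 0.81, 0.38 and 0.28), and with shRNA2 in H929 not against the other scramble group (0.05). RYBP was lower with shRNA1 in both lines (-0.56 and -0.70) and not called with shRNA2 (0.09 and -0.17). Of 6 germline genes held down by E2F6, 3 were tested. STAG3, a cohesin subunit of meiosis, was higher with shRNA1 in MM1.S (0.68 ± 0.18) and with both hairpins in H929 (1.39 ± 0.19 and 0.50 ± 0.19), and SMC1B, its partner, was lower with both hairpins in H929 (-1.46 and -1.14). Neither was called with shRNA2 against the other scramble group (0.09 and -0.24). TUBA3D, whose reads may be shared with near-identical tubulin genes, was lower in MM1.S (-0.94 and -1.41).

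Of the 8 listed apoptosis genes regulated by E2F1, the BH3-only genes BMF (2.23, 1.21, 1.01 and 1.08) and BBC3 (1.51, 1.38, 0.66 and 0.87) were higher in all 4 hairpin comparisons, in which E2F1 was lower. BCL2L11, which encodes BIM, was higher with shRNA1 in both lines (1.14 and 1.98) and with shRNA2 in H929 (0.92), but was not called with shRNA2 in MM1.S (-0.23). With shRNA2 in H929 against the other scramble group BMF remained higher (0.45), BCL2L11 was not called (0.13) and BBC3 was lower (-0.48). In all, 3, 3, 5 and 3 of these genes were higher, against 17.8%, 14.9%, 25.7% and 18.0% of all tested genes. Lower calls numbered 2 and 3 in MM1.S and 0 and 3 in H929, where 7 of the 8 were tested. Of all tested genes, 19.7% and 21.7% were lower in MM1.S and 27.7% and 25.0% in H929. The exchanged controls gave 4 and 1 higher and 1 and 3 lower, against 31.3% and 17.6% of tested genes higher and 32.4% and 21.9% lower. Among 6 genes for the turnover of E2F proteins, 4, 4, 4 and 5 were lower, and 5 and 4 in H929 against the other scramble group, beside the same shares of lower genes. CDC20 (-3.72, -2.85, -3.98 and -2.11) and UBE2C (-3.10, -2.67, -4.36 and -2.17) serve the anaphase-promoting complex, and CCNF (-3.12, -2.78, -1.05 and -1.39) marks activator E2Fs for destruction. SKP2 was called in all but shRNA1 in H929 (-0.77, -1.05, -0.10 and -0.89), and against the other scramble group with shRNA1 (-0.82) but not with shRNA2 (-0.17).

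The genes whose levels followed a member most closely over the 14 libraries were ranked by Pearson's r of log2 values centred on each line's mean, among 9805 genes with a mean of at least 5 CPM in both lines. These libraries form 7 groups of 2 and share their scaling within a line, so r describes the groups and carries no p. For E2F1 they were CHTF18 (r = 0.997), RECQL4 (0.994) and E2F2 (0.992). For E2F8 they were CDK2 (0.988), SPTBN1 (0.986) and SHMT1 (0.986), and for TFDP1 SNRNP25 (0.992), NUP107 (0.989) and DTYMK (0.989). For E2F6 they were EML4 (0.977), KIAA1033 (0.961) and TOR1AIP2 (0.947). Between members on the same measure, E2F1 had r = 0.95 with TFDP1, 0.93 with E2F4, 0.84 with E2F8 and 0.70 with E2F7. It had r = 0.09 with E2F3, 0.03 with TFDP2, -0.49 with E2F5 and -0.69 with E2F6.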

How the data were processed

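RNA was measured in 14 poly(A) libraries of MM1.S and H929. Per the submitters' processing notes, STAR 2.5.3a and DESeq2 1.24.0 were used with GRCh38 (hg38). The counting tool and strand use are not given in the sources used here. The MM1.S table as deposited holds the authors' raw counts per Ensembl gene. The deposited H929 values are a normalized signal: in each library all are multiples of 1 step, and dividing by it gave whole reads within 0.01 for 100% of values, as the authors' scaling of counts by a size factor would leave them. The authors also deposited log2 fold changes and an adjusted p-value per gene for each hairpin, per the file headers. Elimination assigned the shRNA2 columns, and in H929 the column of the second scramble library for shRNA1, as their names match no other sample.

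In R 4.3.3, the quasi-likelihood test of edgeR 4.0.16 was run on MM1.S counts (TMM, filterByExpr with a minimum count of 10, 17820 genes). H929 was tested with limma 3.58.1 (trend) on log2(value + 1) for 18213 genes (minimum value 10, reached in 2 or more libraries), so its fold changes are on that scale. The line difference used limma on all 14 libraries (20370 genes). Tests ran over all genes with Benjamini-Hochberg adjustment, threshold 0.05, all groups of a line in 1 fit, and were tested on simulated data. RPKM used exon lengths of GENCODE release 29. Each list's named genes were the up to 4 with the largest absolute mean change over the 4 hairpin comparisons among those tested in both lines; some of these genes are not reported here. The members and all lists were chosen with earlier results of these data known. MM1.S libraries of the same number deviated together (correlations 0.574 to 0.766 over 11350 genes), so the numbers are taken as pairs. All MM1.S values come from the fit without this block unless the block is named beside them. Alternatives were other scaling, tests, filters and pseudocounts, the block, left-out libraries and other H929 controls.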

Additional observations from a re-analysis of the deposited data

Results flagged for a closer look

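The effect of shRNA1 differed between the lines for 4 members by a test of the difference itself (limma, all 14 libraries, 2 per group). E2F8 fell further in MM1.S than in H929, by -2.32 ± 0.25 on the log2 scale (SE, adjusted p = 6.1e-05). In both lines every hairpin library lay below every scramble library. With shRNA1 its mean went from 51.4 to 6.09 CPM in MM1.S and from 7.25 to 4.27 CPM in H929. Set side by side with no test, the larger fall began at a higher level and did not end at a lower one. TFDP2 differed by -0.88 ± 0.15 (adjusted p = 0.00154), E2F3 by -0.82 ± 0.13 (adjusted p = 9e-04) and TFDP1 by -0.53 ± 0.12 (adjusted p = 0.00785). The H929 side of each rests on the scramble group for shRNA1, in which E2F8 was at 7.25 CPM on average against 19.2 CPM in the other scramble group. Against the other scramble group, a comparison added after seeing the data, E2F8 differed by -0.92 (adjusted p = 0.0185) and TFDP2 by -1.09 (adjusted p = 3.1e-04), while E2F3 (-0.33, adjusted p = 0.0896) and TFDP1 (0.24, adjusted p = 0.169) did not pass. Against both groups, E2F8 (-1.62), TFDP2 (-0.99) and E2F3 (-0.57) passed and TFDP1 (-0.14, adjusted p = 0.402) did not.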

How the results depend on the processing

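Over all settings that kept every library, 522 of 580 gene values kept their direction and their side of the threshold, 9 lost the call, 30 gained it and 19 changed sign. Without 1 library each, 737 of 780 did, 22 lost it, 10 gained it and 11 changed sign. The largest changes came from the H929 control group, an alternative added after seeing the data. With the scramble group of the other hairpin, members higher with shRNA2 in H929 went from 1 to 0, and E2F3 (0.0246), E2F4 (0.1223), E2F6 (0.1262) and TFDP1 (0.1101) changed sign. The difference between the hairpin effects in H929 then had 5 higher and 1 lower members, with E2F3 at 0.0005, E2F7 at 0.5744, E2F8 at 0.8608, TFDP1 at 1.431 and TFDP2 at -0.0891. The shRNA1 difference between the lines had 1 higher and 2 lower, with E2F1 at 0.9539, E2F2 at 1.0139, E2F4 at 0.0265, E2F7 at 0.6442 and TFDP1 at 0.2436. The shRNA2 difference had 6 lower, with E2F3 at -0.1085. With both scramble groups, the hairpin difference in H929 had 4 higher members (TFDP1 0.6583) and the shRNA2 line difference 3 lower, and in the shRNA1 line difference E2F1 (0.3716), E2F2 (0.4318) and E2F7 (0.2067) changed sign. With the replicate number as a block, members higher went from 0 to 1 with shRNA2 in MM1.S, from 1 to 5 with shRNA2 against shRNA1 in MM1.S, and in the shRNA2 line difference from 0 to 2, with 1 lower. Calls over all tested genes rose too, with 26.8%, 28.7% and 9.46% higher in these 3 under the block. In H929, where same-numbered libraries did not deviate together (correlations -0.18 to 0.204 over 11026 genes), the block changed no member's call. Without the filter, 2 members were higher with shRNA2 against shRNA1 in MM1.S and 0 in the H929 hairpin difference. In the shRNA2 line difference 1 was higher with TMM scaling and 1 with a pseudocount of 5. Leaving out 1 library in turn, members higher ranged from 1 to 2 with shRNA2 against shRNA1 in MM1.S, from 0 to 1 with shRNA2 in H929, from 5 to 8 between the H929 scramble groups, from 0 to 2 in the H929 hairpin difference and from 0 to 1 in the shRNA2 line difference. A group left with 1 library was then assumed to vary like the others. Values that changed sign, none of which passed the test with all libraries, ranged from -0.0156 to 0.0402 for TFDP2 with shRNA2 in MM1.S, from -0.1292 to 0.5073 for E2F2 between the MM1.S hairpins and from -0.2918 to 0.049 for E2F5 between the H929 scramble groups. In the shRNA1 line difference they ranged from -0.6251 to 0.2035 for E2F1, from -0.4831 to 0.1826 for E2F2 and from -0.6156 (without H929 shRNA1 replicate 1, adjusted p = 0.0376 by limma) to 0.154 for E2F7, and in the shRNA2 line difference from -0.4007 to 0.1368 for E2F1. With the length of the longest transcript, scramble levels in MM1.S were 16.12 RPKM for E2F3, 45.1 for E2F4, 4.672 for E2F6, 10.43 for E2F7, 14.61 for E2F8, 138.7 for TFDP1 and 3.19 for TFDP2, with the means in the same order of genes. The libraries of E2F2 (43.42 to 48.73 RPKM) and E2F4 (44.36 to 45.84 RPKM) then overlapped, so their order was not resolved. In H929 the scramble levels with that length were 38.72 for E2F4, now above E2F1, 1.952 for E2F5, 4.591 for E2F6, 31.07 for TFDP1 and 3.652 for TFDP2. In replicate 2 of the scramble for shRNA1, TFDP1 (22.19) then lay above E2F1 (19.84). The cause of these changes was not tested. A fit of only the compared groups was not run for the H929 hairpin difference, which uses all 8 libraries. With 2 libraries a group, the spread between libraries, with a chi-square of 2.36 to 30.3 per gene and degree of freedom where counting alone gives about 1, limits precision more than depth.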
